A study of Homo sapiens with 6 samples.

Results

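Matriptase and prostasin are serine proteases of the epithelial cell surface, and they are described here with their Kunitz-type inhibitors and their relatives in the transmembrane (TMPRSS), PRSS and kallikrein (KLK) gene families. The genes were taken by name: ST14 (matriptase), PRSS8 (prostasin), SPINT1 and SPINT2 (the inhibitors), and every gene name that begins with TMPRSS, KLK or PRSS and a digit. The deposited table holds 4439 genes, and 21 of them were found, namely ST14 and 5 TMPRSS genes, 9 PRSS genes, 5 KLK genes and SPINT1. SPINT2 was not in the table and is not analysed here.

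The comparison is of 2 lines by RNA sequencing, with 3 libraries each. HCC827OR is an osimertinib-resistant derivative of HCC827, a human lung adenocarcinoma line. Osimertinib inhibits mutant EGFR, and the dose was raised through 10, 50, 100 and 500 nM to 1 µM and finally 5 µM, with 1 month at each dose. HCC827 is the drug-sensitive parental line and carries an activating EGFR mutation. HCC827OR is a single derived line, and neither whether it is a clone nor whether drug was present at harvest is stated.

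Matriptase is anchored in the membrane by its amino-terminal end and cleaves other cell-surface and secreted proteins after basic residues. Prostasin is held by a lipid anchor, and each of these proteases can promote the activation of the other. SPINT1 and SPINT2 encode transmembrane inhibitors whose Kunitz domains block matriptase, prostasin and related enzymes. In airway and other epithelia the system is known for processing the epithelial sodium channel, growth factor precursors and the adhesion protein EPCAM, and for barrier function.

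The table holds only genes that the authors had called different between these same libraries, 100% of 4439. The smallest absolute log2 fold among the authors' values was 1, so neither level genes nor smaller changes can be seen. A test on the same values is not independent evidence, and the calls and kept directions given below were largely set by this choice of genes. The authors' deposited table called 15 of the 21 genes lower in HCC827OR and 6 higher, against 2047 lower and 2392 higher over all genes. Values are a normalized expression signal of an unnamed unit, so levels are compared between lines within a gene. Ratios and sums over genes below are likewise read between lines, and they do not measure the amount of one gene relative to another. Each library's value is given as deposited, and a mean ± SD, where given, is over n = 3 libraries per line. In bulk RNA, fewer cells expressing a gene and less of its RNA per cell cannot be told apart. The labels do not say whether replicate libraries were grown as separate cultures, and p-values then cover only the variation among these 6 libraries, possibly technical.

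Depth is unknown because the table gives no counts. Summed over the table, values came to 149956 to 152065 in the HCC827OR libraries and 115790 to 145175 in the HCC827 libraries. Of 10 markers of lung adenocarcinoma epithelium 8 were in the table, and their summed values were 2062 to 2101 in HCC827OR and 6325 to 7806 in HCC827. Most of those sums are keratins. All 8 were lower by limma, where 45% of all genes tested were lower. NKX2-1 passed the minimum for testing (1 in 3 or more libraries) through its HCC827 values, so nothing is read from that count. NKX2-1 had 0.12, 0.12 and 0.52 in HCC827OR and 15.64, 14.18 and 12.19 in HCC827, and NAPSA had 1.11, 1.6 and 2.37 in HCC827OR and 145.57, 144.31 and 148.38 in HCC827. These lung lineage markers were thus near 0 in HCC827OR, while KRT18, at 991.06 to 1004.57 there, was not. Of 10 fibroblast markers 5 were in the table, with sums of 32.1 to 35.7 in HCC827OR and 0.43 to 0.8 in HCC827, where POSTN was listed at 0. Most of the HCC827OR sum was LUM, at 23.68 to 27.18, and COL3A1 and PDGFRB were too low to be tested by limma. Of 4 endothelial markers 3 were in the table, with sums of 1.11 to 1.62 in HCC827OR and 4.96 to 10.2 in HCC827, mostly PECAM1. Only PECAM1 was lower in HCC827OR. VWF and TEK were higher there without overlap, at no more than 0.1 and 0.16. None of 5 leukocyte markers was in the table. The part of these markers in the results below was not tested. The labels' extraction text names retinas, and of 6 retinal markers only PDE6A was in the table, at up to 0.28.

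The sequences shown next are from the region at or before the transcription start of 3 genes that were lower in HCC827OR and of the gene with the largest rise among those tested, PRSS12, to show the letters around each motif match. They were read from the RefSeq promoter table on GRCh38.p14, which holds 19 windows for 13 of the 21 genes (250 bases before to 50 after each start). ST14, PRSS8, PRSS22, TMPRSS2, TMPRSS4, TMPRSS6, TMPRSS13 and KLK8 have no entry. The 3 motifs below were searched on both strands: AACCGGTT, bound by Grainyhead-like factors; CACCTG, the E-box bound by ZEB and Snail repressors; and TGANTCA, bound by AP-1. Capitals mark the matches, and each line is 5′ to 3′ on the strand of its gene. The SPINT1 stretch covers 30 bases around its match, from 18 before the start to 12 after it, at chr15:40844030-40844059 on the plus strand, all inside an annotated exon of SPINT1. The other stretches stop before the first annotated exon base of their window: KLK6 at chr19:50969674-50969841 on the minus strand, PRSS3 at chr9:33795311-33795534 on the plus strand and PRSS12 at chr4:118353004-118353253 on the minus strand. The PRSS3 stretch lies inside the annotated gene (33750466 to 33799231), before an internal start and not before the first exon of the gene.
SPINT1: ccccgacggcgcTGACTCAgtttcaccaga
KLK6: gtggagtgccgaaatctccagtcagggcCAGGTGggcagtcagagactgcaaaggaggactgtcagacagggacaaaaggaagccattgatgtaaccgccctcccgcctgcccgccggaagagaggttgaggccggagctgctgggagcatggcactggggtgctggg
PRSS3: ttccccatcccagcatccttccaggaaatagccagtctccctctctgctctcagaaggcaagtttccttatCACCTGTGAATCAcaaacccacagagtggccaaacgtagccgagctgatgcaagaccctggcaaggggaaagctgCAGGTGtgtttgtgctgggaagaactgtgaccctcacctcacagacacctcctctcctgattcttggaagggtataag
PRSS12: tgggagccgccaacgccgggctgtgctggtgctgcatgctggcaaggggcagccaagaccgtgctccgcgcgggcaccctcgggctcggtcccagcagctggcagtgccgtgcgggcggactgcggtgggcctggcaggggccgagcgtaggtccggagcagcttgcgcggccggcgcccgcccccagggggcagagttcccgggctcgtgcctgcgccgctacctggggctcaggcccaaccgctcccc

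The SPINT1 window held an AP-1 match that begins 6 bases before the start. In the PRSS3 window an AP-1 match follows directly on an E-box match that begins 179 bases before the start, and a second E-box begins at 104 bases before it. The KLK6 window held an E-box that begins 222 bases before the start. PRSS12 held none of the 3 motifs and was 76.4% G or C, against 52.7% in the PRSS3 stretch. Over the genes with a window, an E-box lay in 5 of 8 that were lower in HCC827OR (KLK6, KLK7, KLK11, PRSS3 and SPINT1, the last in the window of a second start) and in 1 of 5 that were higher (PRSS23). It lay in 24.1% of all 27305 genes with a window. An AP-1 match lay in 2 of the 8 and 0 of the 5, against 9.37% of all genes. AACCGGTT was in none of the 13 and in 0.165% of all genes. These are matches of letters in short windows and no binding was measured.

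Among the membrane-anchored proteases ST14 and TMPRSS4, TMPRSS13, TMPRSS11E and TMPRSS2 were lower in HCC827OR in the authors' deposited table, and TMPRSS6 was higher. ST14 (ENSG00000149418; chromosome 11, 130159562 to 130210376, build GRCh38) measured 0.5, 0.91 and 1.27 in HCC827OR and 94.85, 73.26 and 127.75 in HCC827. Every HCC827OR library was close to 0, and the lines did not overlap. The means were 0.893 ± 0.385 in HCC827OR and 98.6 ± 27.4 in HCC827, a 110-fold lower level. On the scale of log2(value + 1) the difference was -5.70 (SE 0.244, limma adjusted p = 1.91e-06).

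TMPRSS4 and TMPRSS13 encode further transmembrane trypsin-like proteases of epithelia, and their genes lie near each other on chromosome 11. TMPRSS13 (117900643 to 117929459) was listed at 0 in all 3 HCC827OR libraries and had 10.98, 9.7 and 13.2 in HCC827. TMPRSS4 (118077012 to 118121890) was likewise listed at 0 in all HCC827OR libraries, with 10.95, 9.68 and 27.86 in HCC827. Both genes were thus seen in every parental library and in no resistant one, and no fold is given against a line at 0. Their log2 differences were -3.61 (SE 0.149, limma adjusted p = 1.76e-06) for TMPRSS13 and -3.95 (SE 0.365, limma adjusted p = 4.92e-05) for TMPRSS4. TMPRSS4 overlaps SMIM35 on the opposite strand. No source used here says whether counting used strand, so its reads are uncertain to that extent.

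The other transmembrane proteases had low values and were not tested by limma. TMPRSS11E had 0.06, 0 and 0.03 in HCC827OR and 1.1, 0.8 and 1.78 in HCC827, and the lines did not overlap. TMPRSS2, known for cleaving viral surface proteins, had 0, 0.18 and 0 in HCC827OR and 0.02, 0.17 and 0.91 in HCC827. Its lines overlapped, the only gene of the 21 where they did. Leaving out parental library 3 lowered its parental mean to 0.095, in place of 0.367. TMPRSS6 (matriptase-2, a liver regulator of iron uptake) had 0.28, 0.19 and 0.36 in HCC827OR and 0.02, 0.02 and 0.14 in HCC827, higher without overlap but low in both lines. Without parental library 3 its HCC827OR mean was 13.8-fold the parental one in place of 4.61-fold. Of the 17 genes listed for the transmembrane family 7 were in the table, the seventh being hepsin (HPN), outside the naming rule. HPN had 0.46, 0.36 and 0.49 in HCC827OR and 1.96, 1.53 and 1.09 in HCC827 (log2 difference -0.80, limma adjusted p = 0.00116). By limma all 4 tested genes of that list (ST14, TMPRSS4, TMPRSS13 and HPN) were lower, where 45% of all 3332 genes tested were lower. Each of the 4 passed the minimum for testing through its HCC827 values, so nothing is read from that count.

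**Figure D1:**
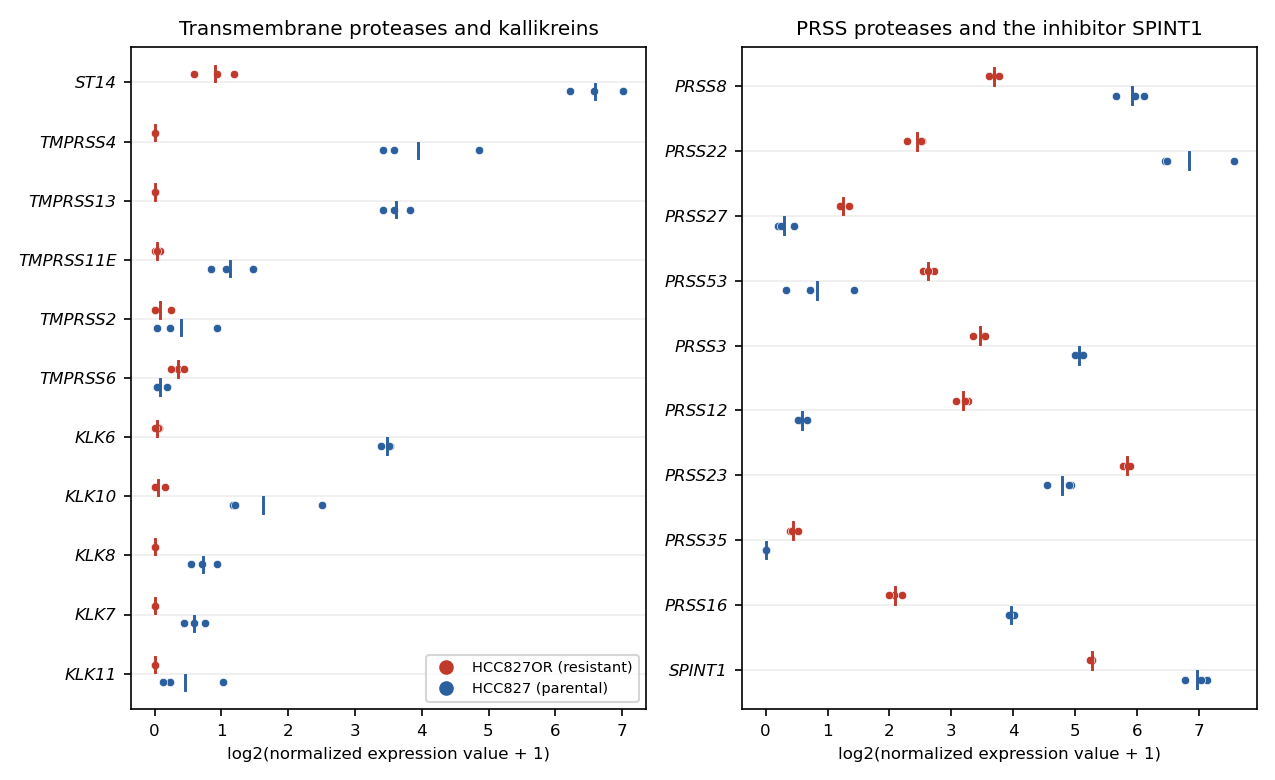
Values of the 21 genes in each library, on the scale of log2(normalized expression value + 1); each point is 1 library, vertical ticks are means of 3 libraries, and HCC827OR is drawn above HCC827 in each row. ST14, TMPRSS4, TMPRSS13 and KLK6 sat at or near 0 in HCC827OR, while PRSS8 and SPINT1 were lower there but clearly present.

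The transcript of the prostasin gene was also lower in HCC827OR and remained present. PRSS8 (ENSG00000052344; chromosome 16, 31131433 to 31135762) had 11.93, 11.14 and 12.69 in HCC827OR and 61.69, 49.5 and 68.06 in HCC827. All HCC827OR values lay below all HCC827 values, with means of 11.9 ± 0.775 in HCC827OR and 59.8 ± 9.43 in HCC827. This was a 5.01-fold lower level, and the log2 difference was -2.22 (SE 0.147, limma adjusted p = 1.03e-05). PRSS8 overlaps AC009088.3, which was not in the table, on the opposite strand.

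The inhibitor gene SPINT1 also fell and also remained present. SPINT1 (ENSG00000166145; chromosome 15, 40844018 to 40858207) had 37.62, 37.77 and 36.8 in HCC827OR and 137.89, 107.96 and 129.46 in HCC827. The HCC827OR libraries lay close together and well below HCC827, with means of 37.4 ± 0.522 in HCC827OR and 125 ± 15.4 in HCC827. The level was 3.35-fold lower, a log2 difference of -1.71 (SE 0.124, limma adjusted p = 1.58e-05). SPINT1 overlaps the antisense gene SPINT1-AS1, which the authors also called lower, so reads of the pair may not be separated.

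Each protease was also set against SPINT1 within each library, a comparison chosen after the values were seen. Gene length cancels when such a ratio is compared between lines without an added constant. The ratio of ST14 to SPINT1 values was 0.0133, 0.0241 and 0.0345 in HCC827OR and 0.688, 0.679 and 0.987 in HCC827. The log2 of this protease-to-inhibitor ratio differed by -5.12, with an SD of 0.695 in HCC827OR and 0.306 in HCC827, and by -3.99 with 1 added to each value. For PRSS8 the ratio was 0.317, 0.295 and 0.345 in HCC827OR and 0.447, 0.459 and 0.526 in HCC827, a log2 difference of -0.58 (SD 0.113 in HCC827OR and 0.125 in HCC827), or -0.51 with 1 added. For PRSS22 it was 0.102, 0.125 and 0.128 in HCC827OR and 0.623, 0.821 and 1.44 in HCC827, a log2 difference of -2.94 (SD 0.181 in HCC827OR and 0.618 in HCC827), or -2.68 with 1 added. In all 3 ratios the lines did not overlap, and each had p = 0.1 by an exact two-sided permutation test over 20 splits, the smallest p that 3 against 3 libraries can give. With no overlap p is fixed at this value, and no ratio could have passed 0.05, before or after adjustment over the 3 ratios. The test therefore cannot decide whether the ratios differ, and nothing is read from it.

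The other PRSS genes went both ways. PRSS22, a tryptase-like protease expressed in airway, had 3.84, 4.73 and 4.72 in HCC827OR and 85.97, 88.67 and 187.02 in HCC827. Its level was 27.2-fold lower (4.43 ± 0.511 in HCC827OR and 121 ± 57.6 in HCC827; log2 difference -4.39, SE 0.3, limma adjusted p = 1.19e-05). The authors' deposited ratio of HCC827OR to HCC827 was 0.0612 for PRSS22, against 0.0367 from these means. Without parental library 3 the log2 difference was -4.03. PRSS22 overlaps AC003965.2 on the opposite strand, which the authors also called lower. PRSS27, another tryptase-like gene on chromosome 16, was higher at low values, with 1.32, 1.31 and 1.54 in HCC827OR and 0.37, 0.15 and 0.19 in HCC827 (log2 difference 0.95, SE 0.104, limma adjusted p = 1.08e-04). PRSS53, which encodes a protein with several protease domains, had 5.6, 4.79 and 5.15 in HCC827OR and 0.26, 0.64 and 1.7 in HCC827 (log2 difference 1.80, SE 0.274, limma adjusted p = 5.30e-04). The HCC827OR mean of PRSS53 was 5.98-fold higher with all libraries and 11.5-fold higher without parental library 3. PRSS53 overlaps AC135050.2 on the same strand, a gene also higher in HCC827OR, so its reads are uncertain.

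Secreted trypsin-like genes were also divided. PRSS3, which encodes mesotrypsin, a trypsin that can degrade trypsin inhibitors, had 9.22, 10.35 and 10.64 in HCC827OR and 32.68, 33.71 and 30.88 in HCC827. This was a 3.22-fold lower level (log2 difference -1.60, SE 0.115, limma adjusted p = 1.53e-05), and PRSS3 shares sequence with other trypsinogen genes, which makes its reads uncertain. PRSS12, or neurotrypsin, a protease that cleaves the matrix protein agrin, had 8.62, 8.32 and 7.41 in HCC827OR and 0.47, 0.43 and 0.59 in HCC827. The level was 16.3-fold higher in HCC827OR (8.12 ± 0.63 in HCC827OR and 0.497 ± 0.0833 in HCC827; log2 difference 2.61, SE 0.134, limma adjusted p = 3.82e-06). PRSS23 had 53.68, 56.61 and 58.07 in HCC827OR and 29.62, 28.82 and 22.27 in HCC827, a 2.09-fold higher level (log2 difference 1.04, SE 0.138, limma adjusted p = 2.68e-04). PRSS23 overlaps FZD4 on the opposite strand. PRSS35 had 0.32, 0.34 and 0.44 in HCC827OR, was listed at 0 in all HCC827 libraries and was not tested by limma. PRSS16, a thymus-associated peptidase that is not of the trypsin fold, had 3.22, 3 and 3.6 in HCC827OR and 15.1, 14.27 and 14.26 in HCC827, a 4.44-fold lower level (log2 difference -1.86, SE 0.129, limma adjusted p = 1.24e-05). Of 28 listed PRSS genes 9 were in the table, and of the 8 tested 4 were higher and 4 lower, beside 52.5% higher and 45% lower of all genes tested. PRSS12, PRSS27 and PRSS53 passed the minimum for testing mainly through their HCC827OR values, so nothing is read from that count.

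All 5 kallikrein-related genes in the table, of 15 listed, were lower in HCC827OR with no overlap between lines, where 43.4% of all genes in the table were lower without overlap. Kallikrein-related peptidases are secreted proteases encoded in a cluster on chromosome 19, best known in skin shedding and glandular secretions. The 5 genes lie next to one another from KLK6 (from 50958631) through KLK7, KLK8 and KLK10 to KLK11 (to 51028039), with KLK9, not in the table, between KLK8 and KLK10. KLK6 had 0.05, 0.04 and 0 in HCC827OR and 10.55, 9.45 and 10.35 in HCC827 (log2 difference -3.43, SE 0.124, limma adjusted p = 1.10e-06). KLK10 had 0, 0.11 and 0 in HCC827OR and 1.25, 1.3 and 4.7 in HCC827 (log2 difference -1.58, SE 0.347, limma adjusted p = 0.00325). The parental mean of KLK10 was 1.27 without parental library 3 in place of 2.42, and its HCC827OR mean was 0 without HCC827OR library 2. The other kallikrein genes were listed at 0 in all HCC827OR libraries and had low parental values. KLK7, a chymotrypsin-like enzyme of skin, had 0.5, 0.35 and 0.69 in HCC827. KLK8, or neuropsin, had 0.46, 0.91 and 0.64 there, and KLK11 had 0.17, 0.09 and 1.03. These last 3 genes were too low to be tested by limma. On the same strand KLK6 overlaps AC011483.3 and KLK8 overlaps AC011473.4. On the opposite strand KLK6, KLK7 and KLK8 overlap AC011483.1, and KLK10 overlaps AC011473.2. None of these overlapping genes was in the table, and reads of these KLK genes are uncertain to that extent.

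Across the 21 genes, 14 reached a value of 1 in 3 or more libraries and were tested, and 7 were not. By limma at an adjusted p below 0.05, 10 of the 14 were lower and 4 higher, where 97.5% of all 3332 genes tested were called, 45% lower and 52.5% higher. The median log2 difference of the 14 was -1.79, against 0.74 over all genes tested. Because the table leaves out small changes, these medians depend on how many genes went each way and are not typical shifts. Only 6 of the 14 (PRSS22, PRSS8, SPINT1, PRSS16, PRSS3 and PRSS23) had a value of at least 1 in every library of both lines, and the other 8 passed the minimum mainly through the line where they were high. Of all 21 genes 14 were lower and 6 higher without overlap between the lines, where 95.2% of the table's genes had no overlap, 43.4% lower and 51.8% higher.

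With 0.1 in place of 1 added before taking logs, the differences of genes near 0 in one line were larger. The log2 difference was then -7.18 for TMPRSS4, -6.82 for TMPRSS13, -6.68 for ST14, -6.32 for KLK6 and -4.03 for KLK10. Among the genes that were higher it was 3.79 for PRSS12, 2.75 for PRSS53 and 2.20 for PRSS27. Among the tested genes ST14 fell most on the log2(value + 1) scale but not on the other.

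**Figure D2:**
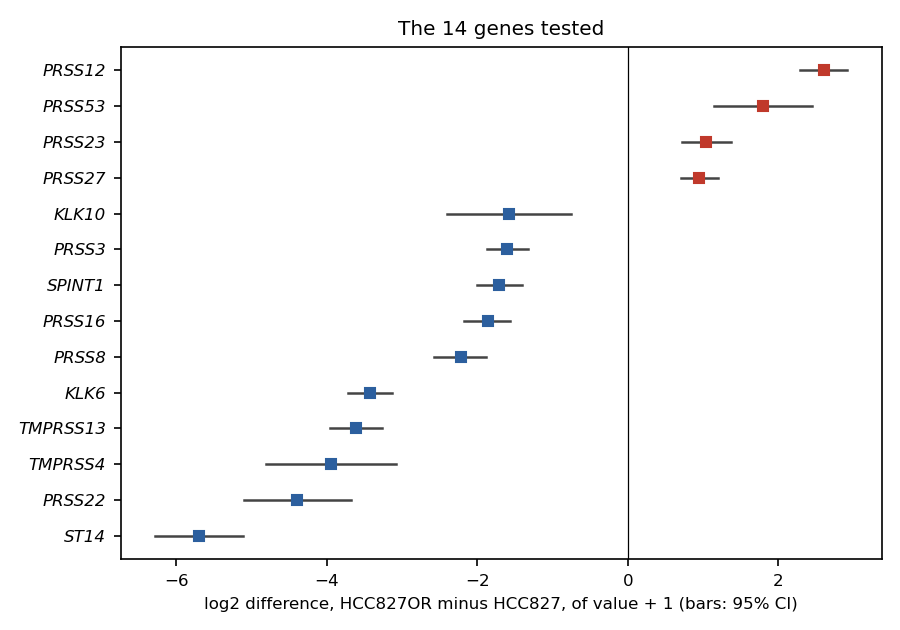
Differences of the 14 tested genes between HCC827OR and HCC827 on the log2(value + 1) scale, with 95% confidence intervals from limma (3 libraries per line); values right of 0 are higher in HCC827OR. They run from -5.70 for ST14 to 2.61 for PRSS12, and no interval reaches 0; the order depends on the added constant of 1 for genes near 0.

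Parental libraries did not give equal values, for these genes or for all genes tested. In parental library 3, 5 of the 14 tested genes (ST14, PRSS22, TMPRSS4, KLK10 and PRSS53) were over 1.5 times the mean of the other parental libraries, and 4 (PRSS16, PRSS3, PRSS23 and PRSS27) were below it. Over all tested genes with a parental value 29.8% exceeded 1.5 times, so the 5 of 14 are not read as particular to these genes. The share below the mean over all genes was not computed, and nothing is read from the 4. PRSS53 was 3.78 times, KLK10 3.69 times, TMPRSS4 2.7 times and PRSS22 2.14 times as high in that library as in the others, whereas PRSS8 was 1.22 times and SPINT1 1.05 times. Leaving this library out kept the direction and the call of all 14 tested genes.

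**Figure D3:**
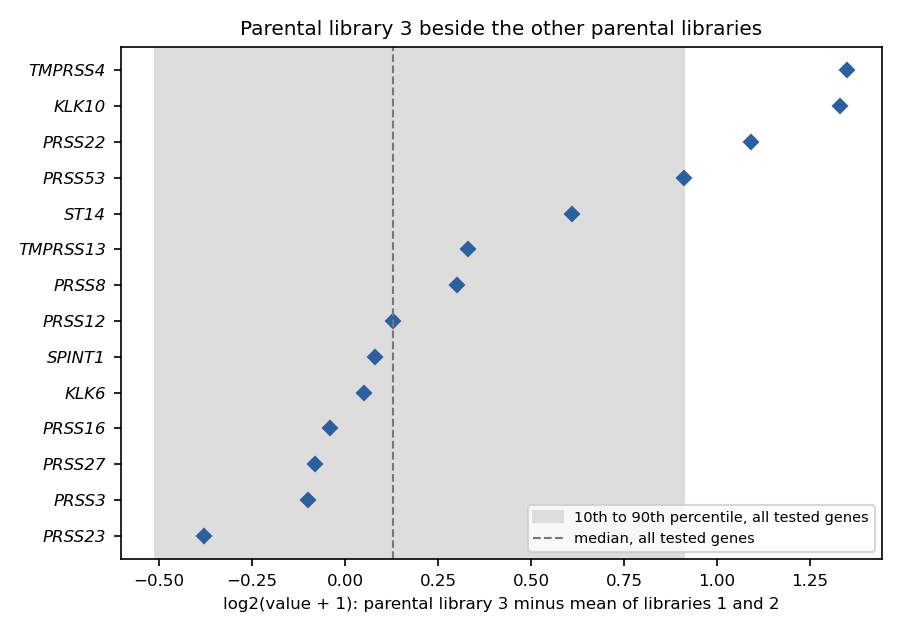
Difference on the log2(value + 1) scale between parental HCC827 library 3 and the mean of parental libraries 1 and 2, for the 14 tested genes; the grey band spans the 10th to 90th percentile of all 3332 tested genes and the dashed line is their median of 0.13. TMPRSS4, KLK10 and PRSS22 lie above the band, PRSS53 lies at its upper edge, and PRSS23 is lowest at -0.38.

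Inhibitors of serine proteases other than SPINT1 went both ways. Of 12 listed Kunitz-domain genes 3 were in the table, SPINT1 among them, and all 3 were lower by limma, where 45% of all genes tested were lower. TFPI2, a Kunitz inhibitor of plasmin and trypsin secreted into the matrix, had 32.6, 30.27 and 29.97 in HCC827OR and 166.5, 167.25 and 268.5 in HCC827, 6.49-fold lower (limma adjusted p = 1.96e-05). APLP2, a relative of the amyloid precursor with a Kunitz domain in some isoforms, was 2.43-fold lower, with means of 208 ± 1.7 in HCC827OR and 506 ± 42.2 in HCC827 (limma adjusted p = 4.64e-05). Of 17 listed Kazal and WAP inhibitor genes 6 were in the table, and of the 5 tested 3 were lower and 2 higher, against 45% lower and 52.5% higher of all genes tested. WFDC2 passed the minimum for testing through its HCC827 values, so nothing is read from that count. SLPI, an inhibitor of leukocyte elastase in mucous secretions, was 48.6-fold lower, with means of 1.49 ± 0.369 in HCC827OR and 72.2 ± 15.8 in HCC827 (limma adjusted p = 1.41e-06). SPINK1, a trypsin inhibitor, was 13.2-fold lower, with 3.95, 4 and 8.37 in HCC827OR and 53.64, 64.12 and 96.99 in HCC827 (limma adjusted p = 4.25e-05). WFDC2 had 0.57, 0 and 0 in HCC827OR and 27.3, 23.6 and 55.9 in HCC827 (log2 difference -4.87, limma adjusted p = 1.51e-05). SPINK5, an inhibitor of kallikreins, had 0.63, 0.42 and 0.41 in HCC827OR and 1.39, 0.89 and 1.25 in HCC827 and was not tested. RECK and WFDC3 rose. RECK, a membrane-anchored protein with Kazal-like repeats that restrains matrix metalloproteases, was 2.44-fold higher and WFDC3 3.06-fold higher (limma adjusted p = 0.00277 and 5.98e-04).

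Of 16 known substrates of matriptase or prostasin 9 were in the table, and of the 8 tested 4 were higher and 4 lower, beside 52.5% higher and 45% lower of all genes tested. FLG passed the minimum for testing through its HCC827OR values, so nothing is read from that count. EPCAM was 29.1-fold lower, with 11.98, 13.23 and 11.89 in HCC827OR and 377.9, 386.34 and 315.68 in HCC827 (limma adjusted p = 5.14e-07). SCNN1A, the alpha subunit of the epithelial sodium channel, was 14.6-fold lower, with 17.64, 13.92 and 16.04 in HCC827OR and 244.3, 195.6 and 254.65 in HCC827 (limma adjusted p = 1.38e-06). PLAU, the urokinase precursor, was 6.41-fold lower (106 ± 5.81 in HCC827OR and 681 ± 224 in HCC827; limma adjusted p = 6.15e-05). The proteoglycan gene SDC1 was 2.04-fold lower (limma adjusted p = 5.98e-04). Those that rose were FLG, IGFBP7, TMEFF1 and MST1. FLG, the skin barrier protein filaggrin, had 22.28, 22.76 and 22.89 in HCC827OR and was listed at 0 in all HCC827 libraries. IGFBP7 was 8.58-fold higher (177 ± 10.1 in HCC827OR and 20.7 ± 2.11 in HCC827; limma adjusted p = 1.38e-06). MST1, the ligand precursor of MST1R, was 2.6-fold higher with 18.75, 11 and 14.27 in HCC827OR and 7.18, 5.97 and 3.8 in HCC827 (limma adjusted p = 0.00257), and it shares sequence with pseudogenes. HGF, the ligand precursor of MET, was listed at 0 in HCC827OR, had 0.27, 0.02 and 0.1 in HCC827 and was not tested.

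Of 7 receptors listed beside these substrates 5 were in the table. Not all are receptors of a listed substrate, F2R being a thrombin receptor. Of the 3 tested MET and MST1R were lower and F2R higher, against the same background of 45% lower and 52.5% higher. MST1R had means of 4.33 ± 0.538 in HCC827OR and 26.4 ± 1.5 in HCC827 (limma adjusted p = 5.54e-06). F2R had 27.29, 27.58 and 27.26 in HCC827OR and 12.9, 11.91 and 9.42 in HCC827, 2.4-fold higher (limma adjusted p = 1.45e-04). The related receptor genes F2RL2 and F2RL3 stayed under 1 in every library and were not tested.

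**Figure D4:**
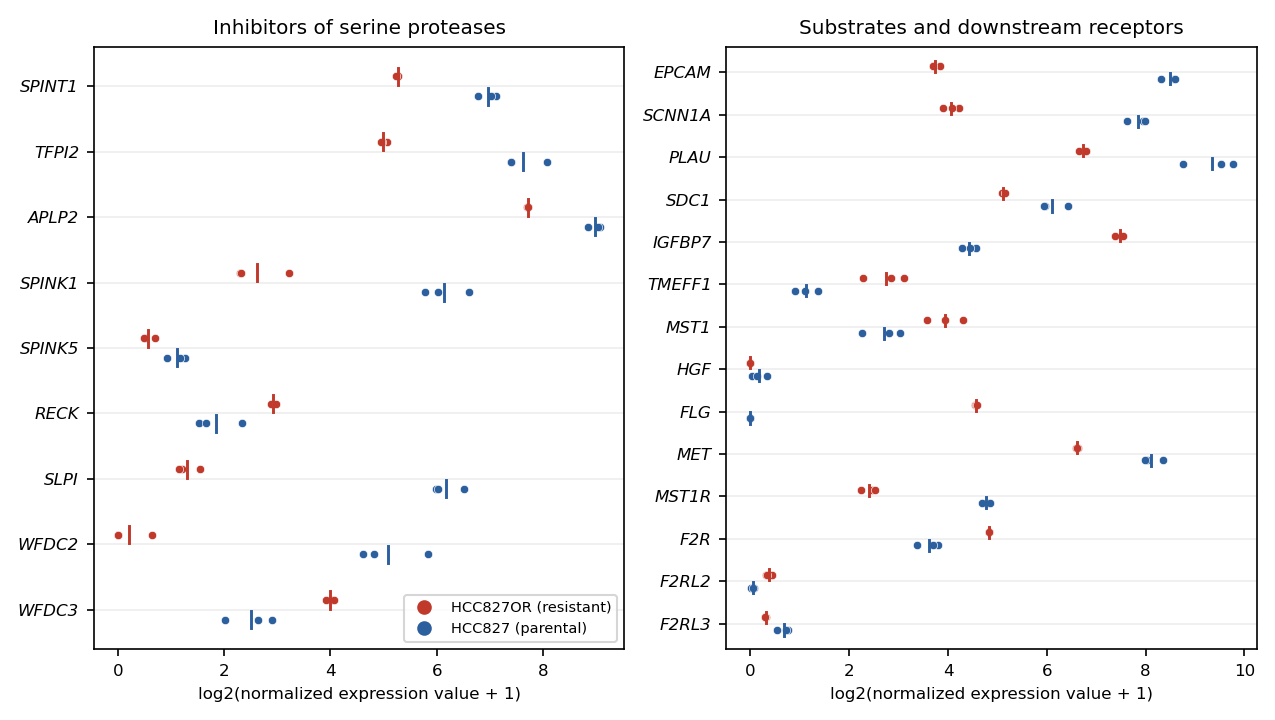
Values per library of serine protease inhibitor genes (left) and of substrates and receptors (right), on the log2(normalized expression value + 1) scale; points are libraries, ticks are means of 3 libraries, and HCC827OR is drawn above HCC827 in each row. SLPI, WFDC2, EPCAM and SCNN1A were lower in HCC827OR, and FLG and IGFBP7 were higher.

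Transcription and splicing regulators of epithelial and mesenchymal state were in the table in 14 of 16 cases. Of 12 tested 9 were lower and 3 higher, against 45% lower and 52.5% higher of all genes tested. GRHL2, OVOL1 and OVOL2 reached a value of 1 in 0 HCC827OR libraries and ESRP1 in 1, and ZEB2 did so in 1 HCC827 library. These genes passed the minimum for testing mainly through the line where they were high, so nothing is read from that count. GRHL2, a Grainyhead-like activator of epithelial genes, had 0.01, 0.03 and 0.03 in HCC827OR and 10.9, 9.56 and 11.77 in HCC827 (log2 difference -3.52, limma adjusted p = 1.33e-06). The E-box repressors ZEB1, ZEB2 and SNAI2 rose, ZEB2 to 21.77, 21.34 and 20.26 in HCC827OR, against 1.63, 0.99 and 0.96 in HCC827 (limma adjusted p = 3.02e-06). Their link to the protease genes was not tested.

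Genomic neighbours in the table, within 100000 bases and outside the naming rule, are given by the call in the authors' deposited table, where 2047 of 4439 genes were lower and 2392 higher. SPINT1 had 5, all lower, one of which (SPINT1-AS1) overlaps it. TMPRSS13 had 5, all lower, but FXYD6-FXYD2 joins FXYD6 and FXYD2, so they are not separate. PRSS8, itself lower, and PRSS53, itself higher, shared the same 4 neighbours, AC135050.2, VKORC1, AC135050.7 and BCKDK, all higher, of which AC135050.2 overlaps PRSS53. PRSS22, itself lower, had 1 higher and 2 lower, and TMPRSS2, itself lower, had 2 lower. ST14 had 1, APLP2, 14751 bases away and lower like ST14, and PRSS27 had 1, higher like itself and also the higher neighbour of PRSS22 (AC092117.1). TMPRSS4, PRSS23 and TMPRSS6 each had 1 that went the opposite way, SCN4B being higher, TMEM135 lower and IL2RB lower.

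Genes most alike in pattern were named by the smallest root-mean-square difference of mean-centred log2(value + 1) over the 6 libraries. For ST14 these were PRODH, CDH3 and NAPSA, at 0.221, 0.222 and 0.226. For PRSS8 they were PIK3AP1, TNFRSF6B and SH2D3A, at 0.0592, 0.0743 and 0.0844. For SPINT1 they were SLC34A2, LY6E and PPL, at 0.0413, 0.0707 and 0.0753. Likeness over 6 libraries of 2 lines reflects mostly the size of the difference between lines.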

How the data were processed

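RNA of 3 HCC827OR and 3 HCC827 libraries was sequenced, grouped and numbered by sample titles. The deposited table gives a normalized signal per gene and library, the authors' mean of each line and their comparison of the lines as a ratio, as log2 fold change and as p-values (raw and adjusted), per the file headers. The test, unit, normalization and annotation behind them are not given in the sources used here. Bowtie 0.12.2 and a mouse build are named, per the submitters' processing notes. The gene IDs are human, so no step is taken from those notes.

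The test was limma 3.58.1 (R 4.3.3), run with a trended prior variance on log2(value + 1). It covered the 3332 of 4439 genes that reached 1 in 3 or more libraries. P-values were Benjamini-Hochberg adjusted over these genes, with 0.05 as the threshold. Differences on this scale understate changes of low genes. The test was checked on simulated data. Positions are those of GENCODE 29 on GRCh38 by gene ID. Genes and lists were chosen with earlier results of these data known: all genes found by the naming rule are named, and listed genes in the table may be. Alternatives covered pseudocount, filter, scaling, trend, replicate block, fold threshold and leaving out each library. Count tests were not run, since the table holds no counts and depth is unknown.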

Additional observations from a re-analysis of the deposited data

How the results depend on the processing

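With a minimum of 5 in 3 or more libraries, 2020 genes were tested and 987 in place of 1749 were higher and 1012 in place of 1500 lower, so that lower genes were then slightly more numerous. With that minimum 2 in place of 4 of the protease genes were higher, because PRSS27 and PRSS53 were no longer tested, nor was KLK10. All 14 protease and inhibitor genes called by limma stayed called and kept their direction with a pseudocount of 0.1, no minimum, scaling to the same median, no trend, the replicate block and each library left out. Same-numbered libraries of the 2 lines did not deviate together (correlations 0.03, 0.03 and -0.03), and with the replicate block 1750 genes were higher, 1508 lower, and 4 and 10 of the protease genes. With each library left out in turn, 1717 to 1758 genes were higher and 1439 to 1508 lower. At an absolute log2 difference of at least 1 as well, 3 protease genes were higher and 10 lower, and without a minimum 6 and 13. Sizes were less stable for genes near 0: with a pseudocount of 0.1 the difference was -7.18 in place of -3.95 for TMPRSS4, -6.82 in place of -3.61 for TMPRSS13 and -6.32 in place of -3.43 for KLK6. The difference of the ST14 to SPINT1 ratio was -4.95 with a pseudocount of 0.1 and -5.12 with none, in place of -3.99. Genes close to 0 are limited by an unknown depth.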
